A study of Mus musculus with 4 samples.

Results

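Primordial germ cells were taken to be the retained cell barcodes in which at least 3 of the 7 genes Dppa3, Dnd1, Dppa5a, Pou5f1, Ddx4, Dazl and Nanos3 were detected and in which the 7 genes together gave at least 8 of every 10000 UMIs (unique molecular identifiers, each standing for 1 captured RNA molecule). A barcode was retained when it held at least 2000 UMIs and at least 1000 detected genes, and when the 13 protein genes of the mitochondrial genome gave under 25% of its UMIs. The members were thus chosen by measured values, the UMIs of these 7 genes, and the rule found 126 cells among 44168 retained barcodes. Of these, 10 came from the library MMPlow 1, 9 from MMPlow 2, 54 from MMPhigh 1 and 53 from MMPhigh 2.

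The libraries were made from the aorta-gonad-mesonephros region (AGM) of C57BL/6J mouse embryos at stage E11.5. The region holds the dorsal aorta, where the first haematopoietic stem cells arise, and the genital ridge beside it. The labels give all 4 libraries as cells positive for CD31, the surface protein encoded by Pecam1, divided by their staining with TMRM, a dye that gathers in mitochondria with a high membrane potential. The dim fraction is MMPlow and the bright fraction MMPhigh, with 2 libraries each, and the study asked how mitochondrial activity relates to blood stem cell function. The labels do not say whether the 2 libraries of a fraction came from separate embryos, so the spread between them may be technical. Only germ cells that passed the sort could be seen. In the other retained cells Pecam1 stood at 275 and 260 CPM in MMPlow and at 23.0 and 19.5 CPM in MMPhigh, so in the libraries labelled MMPhigh the RNA of the sorted marker was low.

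Primordial germ cells are the embryonic precursors of eggs and sperm. They are set aside early in the embryo, migrate through the hindgut and dorsal mesentery to the genital ridges, express a set of pluripotency genes, and erase DNA methylation from most of their genome on the way. They carry CD31 on their surface, and KIT and CXCR4 guide their survival and migration.

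Most germ cells were shallow in 3 libraries and deep in the fourth. Their median UMI count was 3670.5 in MMPlow 1, 5728 in MMPlow 2, 4338 in MMPhigh 1 and 49431 in MMPhigh 2, against 3145, 3740.5, 3674 and 23780 in the other retained cells of the same libraries. Summed over its germ cells, a library held 41026, 70664, 663469 and 2884844 UMIs in the same order, so a gene without any UMI could still be present at up to 73.1 CPM (counts per 1000000 UMIs) in MMPlow 1 and 42.5 CPM in MMPlow 2, taking 3 counts as the upper limit that a count of 0 allows. These limits cover counting error only. A few deep cells weigh heavily in some sums. In MMPhigh 1, 9 of 54 germ cells held at least 20000 UMIs, the deepest 67471. In MMPlow 2 the deepest cell held 18928 of the 70664 UMIs. No barcode sequence was shared between germ cells of 2 libraries, and 1 germ cell barcode of MMPhigh 1 also occurred among the retained barcodes of MMPlow 1. Doublets were not removed. The caller Scrublet marked 0, 2, 0 and 4 of the germ cells, and it marked only 2 barcodes of MMPlow 1 and none of MMPhigh 1, where it is taken not to have worked.

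The genes of the rule describe the cells and are not tested. Dppa5a, an RNA-binding protein of pluripotent cells, was the highest at 1194, 2179, 3222 and 2857 CPM in the germ cells of MMPlow 1, MMPlow 2, MMPhigh 1 and MMPhigh 2. Dppa3, also called Stella, which protects methylated DNA in the early embryo, stood at 341, 552, 808 and 674 CPM. Pou5f1 (Oct4), the central pluripotency factor, stood at 268, 156, 409 and 201 CPM. The RNA-binding protein Dnd1, needed for germ cell survival, stood at 97.5, 142, 115 and 123 CPM. The later germline genes were lower. Dazl, which licenses germ cells for sexual differentiation, stood at 24.4, 14.2, 33.2 and 30.5 CPM, and the RNA helicase gene Ddx4 (Vasa) at 0, 28.3, 90.4 and 75.9 CPM. Nanos3, which protects migrating germ cells from apoptosis, had no UMI in either MMPlow library and stood at 34.7 and 29.5 CPM in MMPhigh. Both of these zeros lie under the limits above.

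Membership rested on few molecules in the shallow libraries. The rule genes gave 3 to 11 UMIs per germ cell in MMPlow 1, with a median of 8.5, and all 10 cells there had exactly 3 of the 7 genes. In MMPlow 2 the range was 8 to 81 UMIs with a median of 14, in MMPhigh 1 it was 3 to 438 with a median of 16.5, and in MMPhigh 2 it was 26 to 486 with a median of 226. In MMPhigh 1, 31 of 54 cells had exactly 3 of the genes. In MMPhigh 2, 27 cells had 6 of the genes and 13 had all 7. The lowest member carried 8.21 rule UMIs per 10000 in MMPlow 1, 14.0 in MMPlow 2, 9.80 in MMPhigh 1 and 11.4 in MMPhigh 2. The nearest cell with 3 of the genes below the threshold had 7.31, 5.27, 0.942 and 7.37 in the same libraries. A further 18, 17, 53 and 0 barcodes reached 8 per 10000 with fewer than 3 genes and were not counted as germ cells.

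A further 11 germ cell and pluripotency genes outside the rule, Utf1, L1td1, Tdh, Tcl1, Dppa4, Nanog, Prdm14, Tfap2c, Rhox5, Rhox6 and Rhox9, were chosen after their levels had been seen. Their detection describes the cells and is no independent check of the label. At least 2 of them were detected in 9 of 10 germ cells of MMPlow 1, 9 of 9 of MMPlow 2, 46 of 54 of MMPhigh 1 and 53 of 53 of MMPhigh 2. Among the other retained cells of these libraries, 0.126%, 0.153%, 1.38% and 0.816% had at least 2. With every barcode thinned to 2000 UMIs the shares were 70.0%, 88.9%, 77.8% and 100% of germ cells against 0.0839%, 0.0971%, 0.759% and 0.0583% of the others. In MMPhigh 1, 2 of the 54 cells had none of the 11 genes.

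Markers of other cell types gave a lower summed level in germ cells than in the other cells of each library. The 77 markers of 11 other cell types summed to 2925, 1288, 716 and 1488 CPM in the germ cells and to 6642, 6505, 6322 and 5689 CPM in the other retained cells. Of the 77 markers, 49, 39, 22 and 7 had no UMI in the germ cells of the respective library. Of the 11 lists, 2 had a higher sum in germ cells in 1 library each: megakaryocyte markers in MMPhigh 2 (616 CPM, 1778 UMIs, against 444 CPM) and granulocyte or mast cell markers in MMPlow 1 (682 CPM, 28 UMIs, against 405 CPM). In 3, 2, 13 and 5 germ cells these markers together gave more UMIs than the rule genes. The part of this RNA in the results that follow was not tested. List counts of germ cells against the rest that change by more than 1.5 times without those 23 cells are given with the lists.

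Germ cells formed a larger share of both MMPhigh libraries than of either MMPlow library. They made up 0.0599% of retained barcodes in MMPlow 1 (95% exact binomial interval 0.0287% to 0.110%) and 0.0460% in MMPlow 2 (0.0210% to 0.0872%). In MMPhigh 1 the share was 1.23% (0.923% to 1.60%) and in MMPhigh 2 it was 1.52% (1.14% to 1.98%). The groups did not overlap, and the mean share was 1.37% ± 0.208 (SD, n = 2) in MMPhigh and 0.0529% ± 0.00984 (SD, n = 2) in MMPlow, a ratio of 26.0. The ratio was 11.6 under a looser rule (2 of 7 genes, 4 per 10000), 39.6 with barcodes of at least 1000 UMIs and 500 genes, and 76.9 under a stricter rule (4 of 7 genes, 12 per 10000), where 1 MMPlow library had no germ cell. A two-sided exact permutation test over the 4 libraries gave p = 0.333, the smallest value that 2 libraries against 2 allow.

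Because a deeper cell shows more of the 7 genes, the share was also counted after thinning every retained barcode to 2000 UMIs. The rule then found 4, 5, 26 and 26 cells, or 0.0240%, 0.0255%, 0.591% and 0.746% of retained barcodes, and the ratio of the group means was 27.0. The plot of these shares by library shows both counts. A share does not tell more germ cells from fewer cells of other types: the retained barcodes numbered 16700 and 19579 in the MMPlow libraries and 4403 and 3486 in the MMPhigh libraries.

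**Figure D1:**
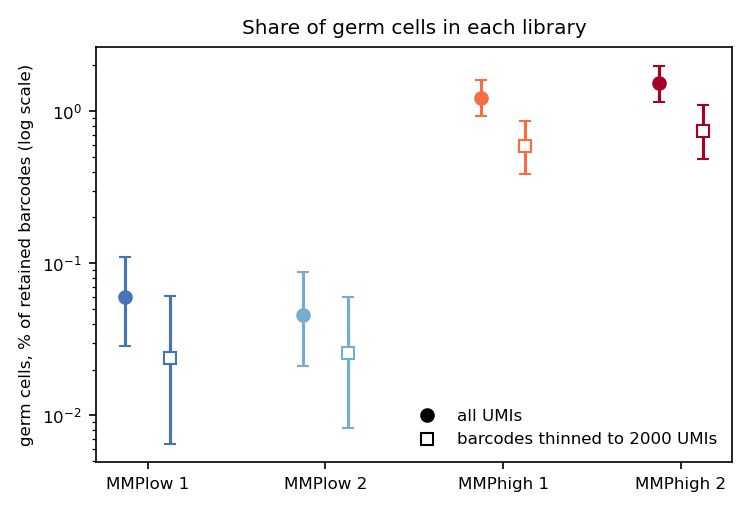
Share of retained barcodes that met the germ cell rule in each library, on a log axis, with 95% exact binomial intervals. Filled circles use all UMIs and open squares barcodes thinned to 2000 UMIs, and both MMPhigh libraries (1.23% and 1.52% with all UMIs) lie above both MMPlow libraries (0.0599% and 0.0460%).

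The germ cells were next compared with all other retained cells, to see what they share beyond the 7 genes of the rule. UMIs were summed over the germ cells and over the other cells of each library, and the 2 sums of a library were compared within it, in 4 pairs, by edgeR's quasi-likelihood test. The rule genes were left out of the tests. The difference between the classes is broad: 7474 of 16193 genes tested were called at an adjusted p under 0.05, which is 46.2%, with 15.8% higher and 30.4% lower in germ cells, and the median log2 fold change over all genes was -0.25. Under another scaling (RLE) that median was -0.38. With the MMPhigh libraries alone, 25% of 17191 genes were called higher and 27.7% lower; the shares were 16.3% and 37.5% with RLE scaling, 19.4% and 34.3% without normalization factors, 22.03% and 29.6% without MMPlow 1, and 17.2% and 38.6% without the 23 cells in which other markers outweighed the rule genes. Counts within a list are to be read against the shares of the same fit. Without MMPhigh 1 the number of calls was 4845 and without MMPhigh 2 it was 3450, against 8495 and 7538 without MMPlow 1 and MMPlow 2.

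Among 11 specification factors of germ cells, 10 rose in germ cells, none fell and 1 was not called, with a median log2 fold of 4.07; 3 of them passed the filter on low counts only through the germ cell sums and so had to differ. Tfap2c, which acts with Prdm1 and Prdm14 to set the germ cell fate, stood at 48.7, 113, 119 and 104 CPM in germ cells and between 0.388 and 0.424 CPM in the other cells. It is one of the 3 that had to differ, with Prdm14 and Nanog, and its fitted log2 fold of 7.92 is a description. Prdm1 (Blimp1), which represses the somatic programme, stood at 122, 170, 173 and 188 CPM against 19.2, 17.2, 7.65 and 7.28 CPM (log2 fold 4.07 ± 0.27 SE, edgeR adjusted p = 1.49e-49). Here the germ cell levels were alike in both fractions while the other cells of MMPlow were higher than those of MMPhigh.

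Prdm14, a chromatin regulator of early germ cells, stood at 48.7, 14.2, 16.6 and 30.2 CPM, resting on 2, 1, 11 and 87 UMIs, and at most at 0.148 CPM in the other cells. Nanog stood at 24.4, 28.3, 49.7 and 80.8 CPM against at most 0.272 CPM, and Sox2 rose (48.7, 170, 152 and 229 CPM against 2.57, 2.96, 10.4 and 11.9 CPM, log2 fold 4.36 ± 0.28). Ifitm3 (Fragilis), an interferon-induced membrane protein known as an early mark of germ cell competence, stood at 292, 764, 1029 and 871 CPM and rose with a log2 fold of 3.80 ± 0.25. Its neighbour Ifitm1 stood at 268, 764, 803 and 791 CPM against 92.3, 108, 24.8 and 25.03 CPM, above the other cells in all 4 libraries, and missed the threshold (edgeR adjusted p = 0.0797), which it passed in 14 of 17 alternatives, among them those without MMPlow 2 (0.000137), without MMPhigh 1 (0.000543) and without MMPhigh 2 (6.34e-05). The RNA-binding protein gene Elavl2 had the smallest increase of the 10 (log2 fold 0.96 ± 0.26), and its call was lost in 9 of 17 alternatives (edgeR adjusted p = 0.465 with RLE scaling). Its germ cell levels were 244, 156, 225 and 243 CPM, while the other cells carried 23.7 and 23.3 CPM in MMPlow and 179 and 209 CPM in MMPhigh.

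Of 15 tested pluripotency genes 14 rose and none fell, with a median log2 fold of 5.64; 5 passed the filter only through germ cells and 2 more of the list, Tdgf1 and Zfp42, did not pass it. Utf1, a chromatin protein of pluripotent cells, stood at 122, 340, 427 and 474 CPM and never above 1.09 CPM in the other cells (log2 fold 8.87 ± 0.33, edgeR adjusted p = 6.13e-152). Dppa4, Tdh and Tcl1 are among the 5 that had to differ. L1td1, an RNA-binding protein derived from a LINE-1 element, stood at 122, 340, 314 and 328 CPM and Dppa4 at 146, 84.9, 167 and 163 CPM. Tdh, the threonine dehydrogenase of mouse embryonic stem cells, stood at 122, 42.5, 229 and 266 CPM, and Tcl1, a cofactor of AKT, at 73.1, 28.3, 52.8 and 55.8 CPM. Klf4 was the exception: it had 0, 1, 2 and 7 UMIs in germ cells and was not called (log2 fold -0.63 ± 0.52). With the 2 MMPhigh libraries alone, 11 of 11 specification factors and 16 of 17 pluripotency genes were called higher and none lower, of which 3 and 7 passed the filter only through germ cells.

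The genes with the largest increase among those with at least 10 UMIs in every germ cell sum were led by a family on the X chromosome. The reproductive homeobox genes Rhox6 (487, 340, 512 and 470 CPM), Rhox9 (317, 722, 607 and 606 CPM) and Rhox5 (756, 538, 736 and 576 CPM) were high in the germ cells of all 4 libraries, within the range of 317 to 756 CPM. None of them exceeded 6.22 CPM in the other cells, and their log2 folds were 8.68 ± 0.31, 8.60 ± 0.31 and 7.15 ± 0.28. With the MMPhigh libraries alone Rhox9 was not called (edgeR adjusted p = 0.114). Members of this family resemble each other in sequence, and how reads were divided among copies is not given in the sources used here. The rest of the 15 were Gm37245, a gene model without a name (log2 fold 7.95), Epcam, Ifitm3, Tet1, Alg13, Atp10a, Rest, Lef1, Bclaf3, Hmgn5, Arhgap42 and Gm26917. Rest, a repressor of neuronal genes, stood at 414, 566, 549 and 475 CPM against 101, 95.1, 74.1 and 57.7 CPM, and Lef1, a transcription factor of the Wnt pathway, at 244, 212, 158 and 199 CPM against 84.5, 76.2, 22.1 and 22.4 CPM.

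**Figure D2:**
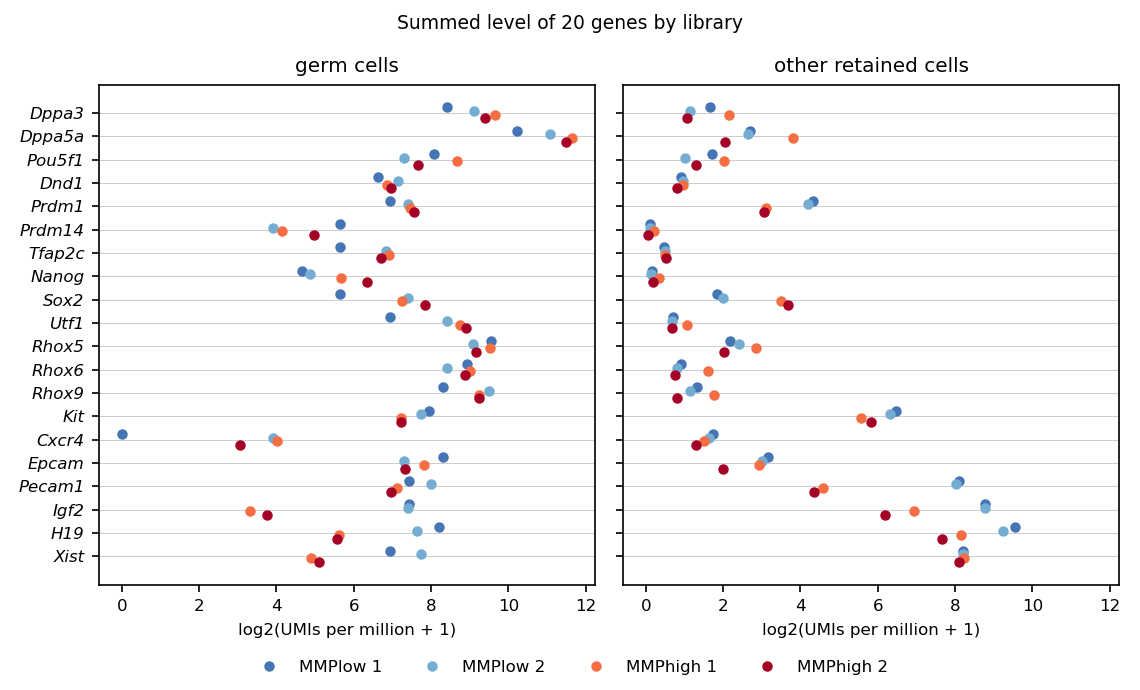
Summed level of 20 genes in the germ cells (left) and the other retained cells (right) of each library, as log2 of CPM plus 1. Dppa3, Dppa5a, Pou5f1 and Dnd1 belong to the rule; the Rhox genes, Utf1 and Tfap2c are high in germ cells of all 4 libraries, while Pecam1, Igf2 and H19 are higher in the other cells of MMPlow than in those of MMPhigh.

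Surface and adhesion genes moved in both directions. Of 14 tested, 6 rose (Kit, Cxcr4, Alpl, Epcam, Cdh1 and Ror2) and 4 fell (Fut4, Gja1, Itga6 and Itgb1). Kit, the receptor for stem cell factor, stood at 244, 212, 148 and 148 CPM in germ cells against 88.4, 79.5, 46.1 and 56.1 CPM, with a log2 fold of 1.42 ± 0.24 (edgeR adjusted p = 2.38e-08). Alpl, the tissue-nonspecific alkaline phosphatase long used to stain germ cells, stood at 73.1, 142, 176 and 185 CPM against 1.36, 1.11, 2.27 and 3.23 CPM (log2 fold 6.14 ± 0.30). The epithelial adhesion genes Epcam (317, 156, 226 and 159 CPM) and Cdh1 (E-cadherin; 73.1, 56.6, 67.8 and 54.4 CPM) rose with log2 folds of 5.17 and 5.56.

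Cxcr4, the receptor for the chemokine Cxcl12, was called higher (log2 fold 2.61 ± 0.37) on only 0, 1, 10 and 21 UMIs. The integrin genes Itga6 and Itgb1 fell, with log2 folds of -2.19 ± 0.29 and -0.93 ± 0.23. Fut4, which encodes a fucosyltransferase, had no UMI in any of the 4 germ cell sums and stood at 1.09 to 2.92 CPM in the other cells. In the deepest library, MMPhigh 2, 0 UMIs allow up to 1.04 CPM against 1.76 CPM, and its call was lost without MMPhigh 2 (edgeR adjusted p = 0.308). Of 7 ligands that the surroundings of germ cells supply, none rose and 5 fell, including Kitl (0, 2, 5 and 7 UMIs in germ cells) and Cxcl12 (0, 0, 0 and 11 UMIs).

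Pecam1, the gene of the sorted surface protein, stood at 171, 255, 139 and 124 CPM in germ cells. The other cells had 275 and 260 CPM in MMPlow and 23.0 and 19.5 CPM in MMPhigh. Germ cells thus lay below the other cells in MMPlow 1, level with them in MMPlow 2 and above them in both MMPhigh libraries, and the gene was not called (log2 fold 1.43 ± 1.01, edgeR adjusted p = 0.359; without MMPlow 2, 0.00654). In MMPhigh 2 all 53 germ cells carried at least 1 Pecam1 UMI. Their levels ran from 27.4 to 380 CPM with a median of 110 CPM, where the sum over the other cells gave 19.5 CPM.

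The germline-restricted genes come next. The piRNA pathway silences transposons in germ cells with small RNAs bound by PIWI proteins. Of 18 listed genes 12 were tested, 11 rose and 1, Tdrd7, fell; 5 of the 12 passed the filter only through germ cells. Fkbp6, a cochaperone of piRNA loading, stood at 73.1, 56.6, 127 and 139 CPM and at most 0.741 CPM elsewhere (log2 fold 7.47 ± 0.34). Stk31, one of the 5, stood at 48.7, 113, 102 and 48.9 CPM against at most 0.418 CPM, and Rnf17, a tudor-domain protein, at 97.5, 156, 155 and 143 CPM against 18.9, 20.4, 14.96 and 14.3 CPM (log2 fold 3.14 ± 0.26). Piwil2, a PIWI protein, rose at a lower level, 48.7, 14.2, 30.1 and 30.9 CPM, whereas Piwil4 had 0, 0, 0 and 1 UMI and did not pass the filter.

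Genes of meiosis were also detected at this stage. Of 18 listed genes 13 were tested and 12 rose, none fell and Rec8 was not called; 4 of the 13 passed the filter only through germ cells. Smc1b, a cohesin subunit of meiosis, stood at 73.1, 99.1, 119 and 96.4 CPM against at most 1.30 CPM (log2 fold 6.80 ± 0.32). Tex14, a component of the bridges between germ cells, stood at 48.7, 255, 255 and 267 CPM (log2 fold 4.76 ± 0.28), and the cohesin gene Stag3 at 97.5, 84.9, 52.8 and 46.4 CPM (log2 fold 4.37 ± 0.31). Sycp3, of the synaptonemal complex, rose with a log2 fold of 4.03 ± 0.36 on 1, 0, 8 and 26 UMIs, and Hormad1, which marks unsynapsed chromosomes and is one of the 4, had 0, 1, 10 and 68 UMIs. Stra8, the gatekeeper of meiotic entry, had no UMI in any germ cell sum, which in the deepest library allows up to 1.04 CPM. With the MMPhigh libraries alone, 13 of 15 piRNA genes and 14 of 15 meiosis genes were called higher, where 8 and 6 of the 15 passed the filter only through germ cells.

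Many promoters of these genes are held silent in somatic cells by DNA methylation and by the polycomb complex PRC1.6, whose subunits MAX with MGA and E2F6 bind the sequences CACGTG (an E-box) and GCGGGAA. The promoters of 44 of the 55 genes on the piRNA, meiosis and other germline lists were matched in RefSeq (build GRCm38.p6), as 250 bases before to 50 bases after the first start listed, and both strands were searched. The E-box occurred in 14 of the 44 (31.8%), against 7.24% of all 27025 promoters and 9.85% of those of genes tested here. GCGGGAA occurred in 8 of 44 (18.2%), against 4.66% of all promoters and 8.23% of those of tested genes. The meiosis list held 6 of the 8, in 6 of its 14 promoters (42.9%). The piRNA list had 1 of 16 (6.25%) and the other germline list 1 of 14 (7.14%), both under the share of tested genes. Among the 1982 promoters of genes called higher in germ cells the shares were 12.01% and 10.8%. A match is a description of the letters and not a measured binding site. The 120 bases before the start are given for 4 genes called higher that have an E-box there (of which Hormad1 and Stk31 had to differ), for the rule gene Ddx4, and for the rule gene Dazl, which has neither sequence in this window. Capitals mark the E-box and, in Hormad1, also GCGGGAA at -95, counted from the start.
Sycp3 (chr10:88459467-88459586, plus strand): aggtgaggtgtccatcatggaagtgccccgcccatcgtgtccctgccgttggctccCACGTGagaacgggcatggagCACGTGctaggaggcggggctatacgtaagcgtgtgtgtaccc
Hormad1 (chr3:95559557-95559676, plus strand): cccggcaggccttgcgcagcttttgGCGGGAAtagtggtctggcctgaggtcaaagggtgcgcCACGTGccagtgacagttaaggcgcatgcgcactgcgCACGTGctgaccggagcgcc
Fkbp6 (chr5:135350045-135350164, minus strand): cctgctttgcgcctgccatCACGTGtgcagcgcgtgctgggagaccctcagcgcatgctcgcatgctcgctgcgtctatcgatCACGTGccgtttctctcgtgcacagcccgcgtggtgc
Stk31 (chr6:49395419-49395538, plus strand): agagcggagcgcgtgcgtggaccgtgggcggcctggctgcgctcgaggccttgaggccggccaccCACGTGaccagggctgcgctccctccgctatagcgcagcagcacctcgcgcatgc
Ddx4 (chr13:112652311-112652430, minus strand): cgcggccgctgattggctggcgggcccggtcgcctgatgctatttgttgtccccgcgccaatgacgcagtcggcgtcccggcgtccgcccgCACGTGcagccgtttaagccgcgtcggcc
Dazl (chr17:50293621-50293740, minus strand): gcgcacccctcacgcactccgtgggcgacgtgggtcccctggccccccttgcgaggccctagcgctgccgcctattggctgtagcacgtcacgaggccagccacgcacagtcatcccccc
Sycp3 has E-boxes that begin at -64 and -43, Hormad1 at -57 and -20, Fkbp6 at -101 and -37, Stk31 at -55 and Ddx4 at -29.

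Of 11 tested genes of DNA methylation and demethylation, 2 rose and 7 fell, and with the MMPhigh libraries alone 4 rose. Tet1, which oxidises methylated cytosine, stood at 366, 368, 289 and 301 CPM against 25.3 to 27.2 CPM in the other cells, with a log2 fold of 3.52 ± 0.25 (edgeR adjusted p = 1.58e-44). Tet2 and Tet3, of the same family, fell, with log2 folds of -1.05 ± 0.29 and -2.89 ± 0.32. Uhrf1, which brings the maintenance methyltransferase to replicating DNA, stood at 48.7, 28.3, 9.04 and 21.5 CPM against 101, 97.6, 88.1 and 97.9 CPM (log2 fold -2.31 ± 0.31, edgeR adjusted p = 1.58e-12). The de novo methyltransferases Dnmt3a and Dnmt3b fell (log2 folds -1.13 ± 0.27 and -1.09 ± 0.36), and the maintenance enzyme Dnmt1 was not called, at 171, 127, 151 and 189 CPM against 159, 158, 127 and 131 CPM. The chromatin remodeller gene Hells rose (log2 fold 1.05 ± 0.23). Tet2 did not pass the test without MMPhigh 1 (log2 fold -0.83, edgeR adjusted p = 0.166), nor did Dnmt3b without MMPhigh 2 (log2 fold -0.50, edgeR adjusted p = 0.572). The Dnmt3b call was lost in 4 of 16 alternatives, the others being the looser germ cell rule, DESeq2 (DESeq2 adjusted p = 0.118) and no library block.

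Among 16 histone methylation and germline silencing genes, 7 rose and 3 fell, and with the MMPhigh libraries alone 11 rose. Prmt5 and its partner Wdr77, a methyltransferase complex of germ cells, rose by log2 folds of 0.68 and 0.80, and the PRC1.6 subunits Pcgf6 and L3mbtl2 by 1.14 and 1.25. Without MMPhigh 1 the 4 log2 folds were 0.69, 0.68, 1.09 and 0.96, and none passed the test on 3 libraries (edgeR adjusted p = 0.22, 0.268, 0.0546 and 0.145). Without MMPhigh 2 Prmt5 (0.52), Wdr77 (0.45) and Pcgf6 (1.06) did not pass it (edgeR adjusted p = 0.382, 0.491 and 0.0564). Prmt5 and Wdr77 were also not called by DESeq2 on all libraries (DESeq2 adjusted p = 0.089 and 0.0959). Ehmt1, a methyltransferase of histone H3 lysine 9, fell with a log2 fold of -1.04 ± 0.25 (97.5, 113, 87.4 and 102 CPM against 209, 207, 190 and 197 CPM), and its partner Ehmt2 was not called (log2 fold -0.49, edgeR adjusted p = 0.14).

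Imprinted genes, which are expressed from 1 parental copy in somatic cells, were mostly lower: of 20 tested 15 fell and 2 rose, with a median log2 fold of -1.80. Igf2 stood at 171, 170, 9.04 and 12.5 CPM in germ cells against 439, 441, 122 and 71.5 CPM. H19, the noncoding RNA beside it, stood at 292, 198, 48.2 and 46.8 CPM against 750, 606, 284 and 203 CPM. Both were lower in germ cells in all 4 libraries and lower in MMPhigh than in MMPlow in both classes of cell. Phlda2, a maternally expressed regulator of placental growth, went the other way, at 0, 42.5, 121 and 141 CPM against at most 1.70 CPM (log2 fold 6.45 ± 0.33), and 50 of 53 germ cells of MMPhigh 2 carried it. Snrpn rose by 0.79 ± 0.28, and did not pass the test without MMPhigh 1 (log2 fold 0.79, edgeR adjusted p = 0.264) or without MMPhigh 2 (log2 fold 0.57, edgeR adjusted p = 0.459). Its call was lost in 4 of 16 alternatives, the others being DESeq2 (DESeq2 adjusted p = 0.177) and no library block.

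Of 28 Hox genes, which pattern the body axis, 26 fell and none rose (median log2 fold -2.53). None of the markers of 11 other cell types rose. Those called lower ranged from 2 of 6 megakaryocyte markers (6 of 6 without the 23 cells in which other markers outweighed the rule genes, 1 of 6 with MMPhigh alone) and 5 of 9 endothelial markers (3 of 9 with MMPhigh alone) to 8 of 8 macrophage markers. The 23 cells were chosen by these markers, so leaving them out lowers the markers in germ cells by construction. The embryonic globin genes Hba-x (0, 1, 3 and 3 UMIs in germ cells) and Hbb-y (1, 1, 6 and 11 UMIs) fell, and with log2 folds of -6.29 ± 0.41 and -5.56 ± 0.35 they led the genes that fell among those with at least 50 CPM in the other cells of every library. The rest of the 10 were Acta2, Hba-a1, Slc25a21, Itm2a, Fbn2, Unc5c, Hbb-bh1 and Ptn. Germ cells had 24.4, 56.6, 45.2 and 21.1 CPM of the 8 erythroid markers together against 1343, 1088, 1432 and 556 CPM in the other cells.

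Of the cell cycle genes, 8 of 16 in the S phase list rose and 1 fell, and 8 of 16 in the G2 and M list rose and none fell. The S phase count was 12 with RLE scaling, 14 without normalization factors, 14 with MMPhigh alone, 13 without MMPlow 1 and 12 without the 23 cells. Ung, the uracil DNA glycosylase, rose most of the S phase list, at 122, 142, 253 and 212 CPM against 23.7 to 24.8 CPM (log2 fold 2.97 ± 0.26), and Cenpf of the G2 and M list stood at 390, 807, 538 and 660 CPM against 167 to 182 CPM (log2 fold 1.67 ± 0.23). Mki67 was not called (log2 fold -0.04 ± 0.23).

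Most genes of energy metabolism were not called. The 76 nuclear genes of oxidative phosphorylation had a median log2 fold of 0.03, with 8 higher, 3 lower and 65 not called; 15 and 22 were higher under RLE scaling and without normalization factors, and 40 with the MMPhigh libraries alone. Lower were 9, 7 and 8 in the same order, and 9 without the 23 cells; without MMPlow 1, 23 were higher. Their summed level was 25008, 25586, 25905 and 25956 CPM in germ cells and 20272, 20473, 21647 and 21929 CPM in the other cells. Of 13 mitochondrially encoded genes 1, mt-Co3, rose (log2 fold 0.51 ± 0.22), and 3, 9 and 6 were called higher under the same 3 alternatives, 4 without MMPlow 1 and 0 without the 23 cells. Of 19 glycolysis genes 4 rose and 4 fell; 8 fell with RLE scaling or without normalization factors and 7 without the 23 cells. Ldha fell (341, 340, 190 and 209 CPM against 562, 639, 629 and 779 CPM, log2 fold -1.54 ± 0.24), as did Tpi1, Eno1 and Pgk1 (-1.37, -0.63 and -0.61), while Ldhb, Pfkp, Pdk1 and the glucose transporter gene Slc2a3 rose. Among 13 apoptosis genes Trp53 and Bax rose by 0.96 and 0.94, and Bcl2, Casp8 and Bak1 were among the 4 that fell (8 with RLE scaling or without the 23 cells). The shares called, 15.4% higher and 30.8% lower, lie near the 15.8% and 30.4% over all genes. With the MMPhigh libraries alone 4 rose and 6 fell. Of 12 immediate early genes, which dissociation and sorting can induce, 3 rose and 7 fell, and 1 of the 12 passed the filter only through germ cells.

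**Figure D3:**
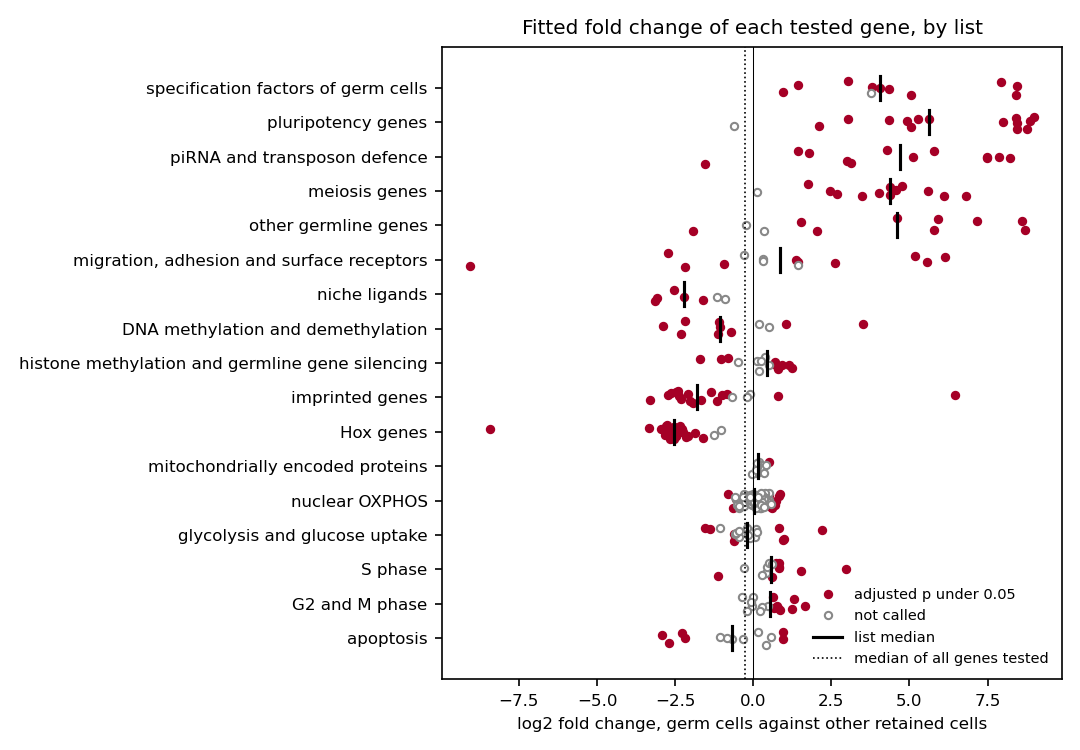
Fitted log2 fold change of germ cells over the other retained cells for each tested gene of 17 lists, each point 1 gene, filled where the edgeR adjusted p was under 0.05, with a bar at each list's median and a dotted line at the median of all genes tested (-0.25). The specification, pluripotency, piRNA and meiosis lists lie to the right and the Hox and imprinted lists to the left; the point farthest to the left is Fut4, which had no UMI in germ cells, and the fitted value of a gene without a UMI there is no measured fold.

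In XX germ cells the silent X is reactivated around the time they reach the genital ridge. A UMI of a Y-linked gene was found in 5 of 10, 5 of 9, 27 of 54 and 39 of 53 germ cells, against 39.7%, 43.5%, 38.6% and 64.8% of the other cells. Xist, the RNA that coats the silent X, fell in germ cells: 122, 212, 28.6 and 33.6 CPM against 294, 292, 298 and 274 CPM (log2 fold -2.46 ± 0.27, edgeR adjusted p = 1.68e-17). In MMPhigh 2, the library deep enough to read single cells, 3 of 14 germ cells without a Y-linked UMI had a Xist UMI, against 83.9% of the 1210 other cells without one, at median depths of 48766 and 20695.5 UMIs. Of cells with a Y-linked UMI, 9 of 39 germ cells and 24.5% of the 2223 other cells had one, at median depths of 50123 and 25768 UMIs. Cells with a Y-linked UMI are the nearest to a background here, though that each of them is XY was not tested. In germ cells the 2 shares were alike, 21.4% without and 23.1% with a Y-linked UMI. In the other cells they were 83.9% and 24.5%. The germ cell shares are not read as expression. Of the 12 germ cells with Xist 8 held 1 or 2 UMIs, and the other 4 held 87 of the 97.

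X-linked RNA, with Xist left out, was higher in germ cells without a Y-linked UMI in every library. Per 100 autosomal UMIs it was 3.46 without and 3.04 with a Y-linked UMI in MMPlow 1, 3.41 and 2.97 in MMPlow 2, 3.07 and 2.85 in MMPhigh 1, and 3.19 and 3.08 in MMPhigh 2. Over the 3 libraries with at least 5 cells of each kind, which leaves out MMPlow 2, the difference was 0.251 ± 0.154 (SD, n = 3), and an exact sign-flip permutation test gave p = 0.25, the smallest that 3 libraries allow. Among the other cells of the same libraries the difference was 0.0229 ± 0.0731 (SD, n = 3; exact permutation p = 1), and in MMPhigh 2 it was 0.106, close to the 0.114 of the germ cells there. The levels of the other cells without a Y-linked UMI were 3.44, 3.67, 3.86 and 3.92 per 100 in MMPlow 1, MMPlow 2, MMPhigh 1 and MMPhigh 2. With a Y-linked UMI they were 3.45, 3.66, 3.89 and 3.81. Germ cells thus held less X-linked RNA than the other cells, except those without a Y-linked UMI in MMPlow 1, which were level. A cell without a Y-linked UMI may be a shallow XY cell: in MMPhigh 1 the germ cells without one had a median of 2852 UMIs and those with one 7719. Among cells with at least 5000 UMIs the difference was 0.149 and with at least 2 Y-linked UMIs it was 0.189, each over the 2 MMPhigh libraries; without MMPlow 1 it was 0.167.

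**Figure D4:**
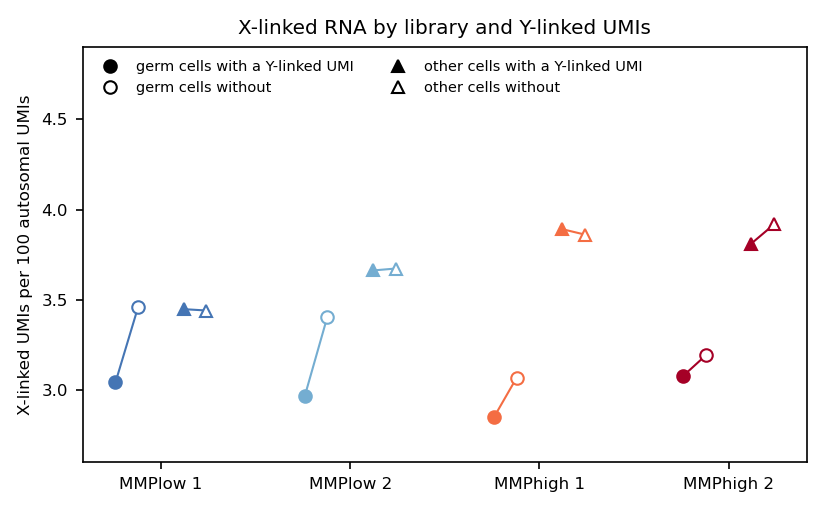
X-linked UMIs (Xist left out) per 100 autosomal UMIs in cells with a Y-linked UMI (filled) and without (open), for germ cells (circles) and other retained cells (triangles) of each library; the axis starts at 2.6. Open circles lie above filled circles in all 4 libraries, by 0.114 in MMPhigh 2 to 0.441 in MMPlow 2, while the triangles of a library lie within 0.106 of each other.

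Within germ cells, MMPhigh was compared with MMPlow to see whether germ cells of the bright fraction differ in expression. The sums of the 4 libraries were tested 2 against 2 with edgeR, which called 20 of 6283 genes (0.318%), 2 higher (0.0318%) and 18 lower (0.286%) in MMPhigh; without adjustment 682 had a p under 0.05. No gene of the germ cell lists was among them: 0 of 11 specification, 0 of 15 pluripotency, 0 of 9 piRNA and 0 of 5 meiosis genes were called, and neither were Kit (log2 fold -0.48 ± 0.32) or Pecam1 (-0.65 ± 0.34). In these lists 1, 4, 1 and 0 genes had an unadjusted p under 0.05, and DESeq2 called none. In the same order, folds were positive in 10 of 11, 15 of 15, 5 of 9 and 3 of 5 genes. The median log2 folds were 0.55, 0.73, 0.27 and 0.36, against 0.03 over all genes tested. The specification and pluripotency lists share Nanog, Sox2, Sall4 and Lin28a. A positive fold was favoured for a gene that passed the low-count filter only through MMPhigh, such as Zfp42. The share of positive folds over all genes was not counted, so nothing is read from these signs. At the 0.318% called over all genes, lists of this size would rarely hold a call. The absence of calls thus does not show that the fractions were alike. Without the 23 cells 2 of 15 pluripotency genes, Tdh and Zfp42, were called higher in MMPhigh, against 9 of 6083 genes (0.148%) over all tested in that fit. The MMPlow sums are small, 1 UMI standing for 24.4 CPM in MMPlow 1, which leaves little precision for low genes. Zfp42 (Rex1), a pluripotency marker, had no UMI in MMPlow and 61.8 and 80.8 CPM in MMPhigh and was not called. It entered the test only through MMPhigh, and its 0 UMIs allow up to 73.1 and 42.5 CPM in the MMPlow libraries, so nothing is read from the settings in which it was called.

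The 2 genes that rose were the glycolytic enzyme gene Gapdh (463 and 467 CPM in MMPlow, 1185 and 1339 CPM in MMPhigh, log2 fold 1.56 ± 0.29, edgeR adjusted p = 0.0182) and the tubulin gene Tubb4b (195, 297, 666 and 730 CPM, log2 fold 1.57 ± 0.32, edgeR adjusted p = 0.034). In the other cells Gapdh stood at 648, 745, 1335 and 1468 CPM and Tubb4b at 246, 281, 327 and 358 CPM. Of 14 imprinted genes tested, 3 were called lower in MMPhigh and 11 were not called, 8 had a positive fold, and the median log2 fold was 0.16. The 3 were Igf2, Mest (390, 226, 9.04 and 38.8 CPM) and H19 (log2 fold -2.20 ± 0.38). The others called lower were Gnas, Col4a1, Gng11, Cdh5, Cldn5, Vim, Mmp14, Rhoj, Xist, Filip1l, Nhs, Stfa1, 5330438D12Rik, Gm26827 and Gm10785. Of the 18 genes called lower, 13 passed the filter on low counts only through the MMPlow libraries and so had to differ, among them Igf2, Mest and Col4a1, a collagen of basement membranes with 9, 4, 1 and 9 UMIs. Those that passed through both fractions were H19, Gnas, Vim, Xist and 5330438D12Rik, and both genes that rose. The Xist call was lost in 9 of 16 alternatives, some of which leave 1 library in a fraction. With Scrublet calls removed its log2 fold was -1.26 (edgeR adjusted p = 0.526). With a mitochondrial share under 10% it was -1.87 (edgeR adjusted p = 0.168). In MMPlow 2, 2 germ cells that also held Y-linked UMIs gave 13 of the 15 Xist UMIs.

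The means of these genes over the other cells differed in the same direction. For all 18 genes called lower and both that rose, the mean over the other cells was also lower or higher in MMPhigh, although for Xist the other cells were close and the fractions overlapped (294, 292, 298 and 274 CPM). How often the directions match over all genes tested was not counted, so the match is a description. Cdh5 and Cldn5 are endothelial markers. The 9 endothelial markers summed to 1219, 269, 55.8 and 54.1 CPM in germ cells (50, 19, 37 and 156 UMIs) and to 2382, 2308, 95.5 and 81.7 CPM in the other cells, and of the 9 none was at 0 in either MMPlow germ cell sum. The part of this RNA in the calls was not tested. The number of calls changed with 1 library left out, which leaves 1 sample in a fraction, assumed to vary like the other fraction. By edgeR, without MMPlow 1 no gene was called (720 at an unadjusted p under 0.05), without MMPlow 2 there was 1, without MMPhigh 1 there were 31, and without MMPhigh 2 there were 18. Of the 20 genes, 16, 19, 17 and 11 were still tested in the same order, and none of these changed sign. The genes called in these fits were mostly not among the 20. Without MMPlow 1 the log2 fold was 1.61 for Gapdh, -3.72 for Igf2 and -5.14 for Gng11. Other folds shrank: Cldn5 went from -4.00 to -2.18 and Vim from -2.19 to -1.41. Without the 23 germ cells in which other markers outweighed the rule genes, 46 of 6083 genes were called. Of the 20, 15 were still tested and called, and Cdh5, Cldn5, Gng11, Rhoj and Stfa1 no longer passed the filter. The endothelial list went from 2 of 5 tested genes called lower to 0 of 2, the megakaryocyte list from 0 to 1 of 1 and the mitochondrially encoded genes from 0 to 1 of 13. The 23 cells were chosen by the UMIs of the other cell type markers. Leaving them out lowers those markers by construction, so the changes in the endothelial and megakaryocyte lists are no separate result.

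**Figure D5:**
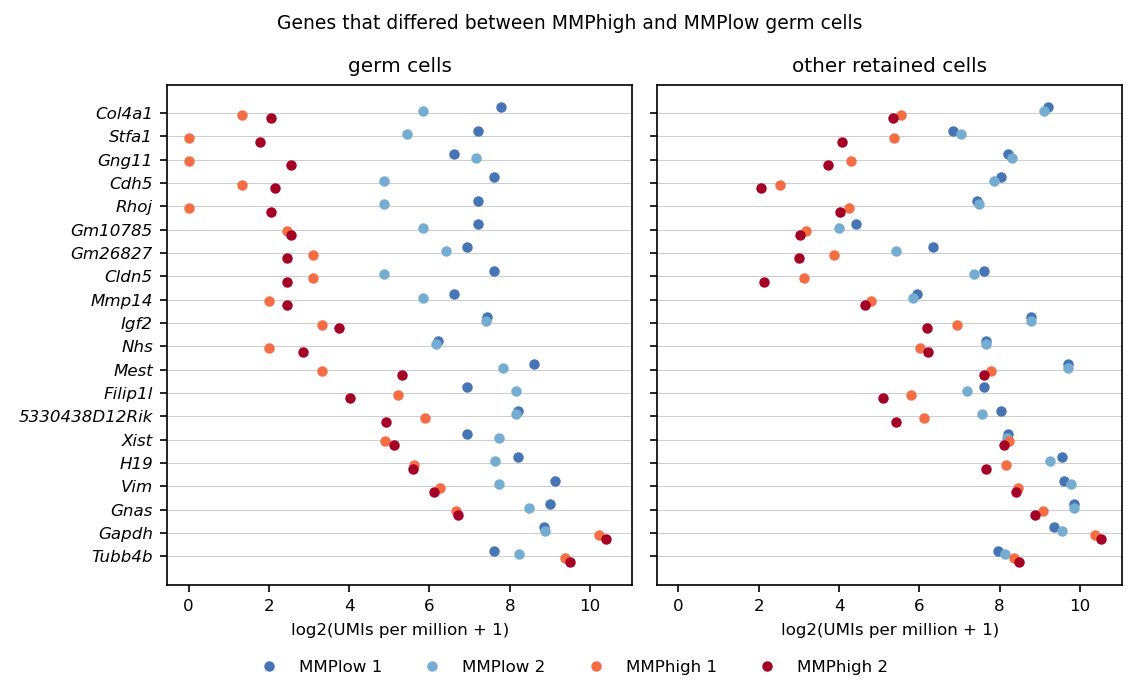
Level of the 20 genes that differed between MMPhigh and MMPlow germ cells, as log2 of CPM plus 1, in the germ cells (left) and in the other retained cells (right) of each library. Gapdh and Tubb4b are higher and 18 genes lower in the germ cells of both MMPhigh libraries, and the means over the other cells differ in the same direction. The 20 were picked by the test. Over all 6283 genes tested, the germ cell CPM of the fractions did not overlap for 2940 (46.8%).

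The median share of mitochondrial RNA over germ cells was 7.21% in MMPlow 1, 5.40% in MMPlow 2, 3.64% in MMPhigh 1 and 3.84% in MMPhigh 2, against 4.11%, 4.38%, 3.29% and 3.65% in the other cells. The MMPlow germ cells were higher, 6.30% ± 1.28 (SD, n = 2) against 3.74% ± 0.139 (SD, n = 2), with an exact permutation p of 0.333, the smallest possible. Among germ cells with at least 5000 UMIs and 2000 genes, of which MMPlow 1 had 1 and MMPlow 2 had 6, the medians were 3.10%, 4.24%, 3.83% and 3.84%, and the difference turned to 0.166 points higher in MMPhigh (exact permutation p = 1).

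Single cells could be compared with each other only in MMPhigh 2, where 50 of 53 germ cells held over 20000 UMIs. Dppa5a ranged from 737 to 5641 CPM with a median of 2668, and Dppa3 from 164 to 1250 CPM with a median of 698. Prdm1, Utf1, Kit and all 3 Rhox genes were found in 53 of 53 cells, Nanog in 51, Tfap2c in 52, Ddx4 in 44, Nanos3 in 34, Dazl in 26 and Sycp3 in 17. At a few UMIs per cell, the presence or absence of Dazl or Ddx4 does not divide the cells into kinds.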

How the data were processed

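Single cells were captured and sequenced from the 3' end (10x Genomics, v3 chemistry), per the labels' protocols. The authors deposited whole-number UMI counts per gene and barcode; the files were written by Cell Ranger 7.0.1 per the file headers, whereas the submitters' processing notes name Cell Ranger 2.1.1 and the build mm10. Which version made the counts is not settled here. From these counts, UMIs were summed per library over germ cells and over other retained cells (2000 UMIs, 1000 genes, under 25% mitochondrial), and CPM were computed from the sums. The sums were tested with edgeR 4.0.16 (R 4.3.3; TMM, filterByExpr, robust quasi-likelihood F-test, two-sided, Benjamini-Hochberg), with the library as a block when germ cells were set against the rest; each SE was taken as the absolute log2 fold divided by the root of the F statistic. DESeq2 1.42.0 was an alternative. Scrublet was run in scanpy 1.11.5. Libraries held 4288 to 59928 barcodes and 51800709 to 120168395 UMIs. Sums were also simulated with the dispersion set at 0.05 for every gene, a value not taken from these data. Recovery was counted among the changed genes that passed the filter (161 and 193). The MMPhigh test (6332 genes) recovered 55.4% of 4-fold and 92.3% of 8-fold changes. The germ cell test (16674 genes) recovered 81.4% and 94.8%, with 16 false calls among 186. These shares do not give the power of the tests on the real sums.

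Members, lists and tests were chosen with earlier results of these data known. Named genes were called list members with the largest folds or textbook members, the 15 largest increases (at least 10 UMIs in every germ cell sum) and 10 largest decreases (at least 50 CPM in the other cells of every library), and for MMPhigh up to 10 called genes a direction with at least 10 UMIs in both higher libraries. The other called genes of that comparison, and the 11 further germ cell genes, were chosen after their values were seen.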

Additional observations from a re-analysis of the deposited data

Results flagged for a closer look

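Of the 75 named genes tested, chosen for differing between germ cells and the rest or between the fractions or as textbook members, 11 passed edgeR's interaction test over the 8 sums: the difference between germ cells and other cells was itself different in MMPhigh and MMPlow. Of all 16193 genes tested, 265 (1.64%) passed it. The log2 fold of germ cells over other cells was higher in MMPhigh than in MMPlow for Pecam1 (log2 difference 3.39, edgeR adjusted p = 1.13e-19), Ifitm1 (3.07, edgeR adjusted p = 1.02e-26), Prdm1 (2.02, edgeR adjusted p = 0.000397), Lef1 (2.00, edgeR adjusted p = 1.67e-05), Hmgn5 (1.90, edgeR adjusted p = 2.35e-08), Ifitm3 (1.58, edgeR adjusted p = 1.87e-06), Tubb4b (1.57, edgeR adjusted p = 5.11e-05), Rest (1.09, edgeR adjusted p = 0.0133) and Gapdh (0.92, edgeR adjusted p = 0.0161). It was lower in MMPhigh for Elavl2 (-2.27, edgeR adjusted p = 5.54e-05) and Xist (-1.92, edgeR adjusted p = 0.00142). The germ cell sums of MMPlow 1 and MMPlow 2 held only 5 and 15 Xist UMIs. Gapdh was lower in germ cells than in other cells in all 4 libraries, less so in MMPhigh, Xist was lower in all 4, more so in MMPhigh, and Pecam1 changed direction. Pecam1, Lef1 and Prdm1 were higher in the other cells of both MMPlow libraries than of either MMPhigh library, and Elavl2 was lower there. None of these 4 genes was called between the germ cells of the fractions. Marker sums of the other cells move with the same split: endothelial (2382 and 2308 CPM in MMPlow, 95.5 and 81.7 CPM in MMPhigh), neural (200.1, 189, 1421 and 1740 CPM), macrophage (502, 535, 1685 and 1725 CPM) and mesonephric (45.97, 43.7, 288 and 336 CPM). Their part was not tested.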

How the results depend on the processing

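The difference in share kept its direction under every alternative run, from 0.643 points (thinned) to 1.90 points (2 of 7 genes and 4 per 10000), and from 1.17 to 1.47 points with 1 library left out. The mitochondrial share turned from -2.56 to 0.166 points among cells with at least 5000 UMIs and 2000 genes, where MMPlow 1 has 1 cell; the other alternatives gave -4.71 to -1.66, and -3.47 to -1.66 with 1 library left out. The X-linked difference between germ cells without and with a Y-linked UMI was 0.167 to 0.319 with 1 library left out, 0.149 among cells with at least 5000 UMIs and 0.189 with at least 2 Y-linked UMIs.

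Of the 20 genes called between the fractions, the count was 0 with at least 4 of 7 genes and 12 per 10000 (779 at an unadjusted p under 0.05), 473 with 2 of 7 genes and 4 per 10000, 9 with cells thinned to 2000 UMIs (1273 genes tested), 108 with no low-count filter, 41 by DESeq2 (243 genes without an adjusted p) and 0 to 31 with 1 library left out. Leaving out cells with fewer rule than other marker UMIs (46) and using no normalization factors (40) were chosen after seeing the data. The direction of the calls changed too: 68 of the 108 with no low-count filter were higher in MMPhigh, and 6 of the 9 with thinned cells. In the other settings on all 4 libraries that called genes, most calls were lower in MMPhigh (279 of the 473 with 2 of 7 genes). In germ cells against the other cells, 7474 genes became 307 with at least 10 UMIs in every germ cell sum (634 tested), 4089 by DESeq2 (2513 without an adjusted p), 4661 with no library block and 3450 to 8495 with 1 library left out. The Pecam1 difference between the fractions, -0.65, lay between -0.79 and 0.025 with 1 library left out, the last without MMPlow 2. Of 1061 pairs of a named gene and a setting in germ cells against the rest, 1011 kept direction and call, 32 lost and 18 gained the call, and none reversed; between the fractions it was 181 of 237, with 51 lost, 4 gained (all Zfp42) and 1 reversed. The cause of each change was not tested, apart from the fewer genes or libraries named.

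Same-numbered libraries of the fractions did not deviate together (correlation -0.0631 for both pairs, which 2 pairs make equal), so the numbers were not taken to pair the libraries. With the number as a replicate block 76 genes were called between the fractions, among them all 20. The depth of the MMPlow sums, at 41026 and 70664 UMIs, limits every comparison between the fractions.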
